A study of Mus musculus with 2 samples.

Results

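The Ly6 surface antigens described here are 5 genes, Ly6c1, Ly6c2, Ly6a, Ly6e and Ly6d, taken by symbol from the 31056 features of the deposited gene table. The genes were chosen by symbol and selected on their measured UMI levels in these same libraries, as seen in earlier results, so every level and contrast is a description and none carries a test. The study made 2 single-cell libraries with the 10x 3' V2 kit, 1 of lymph node and 1 of spleen cells. Both hold flow-sorted CD4+ CD25+ cells of healthy female Mycfl/flFoxp3Cre/WT mice, YFP+ and YFP- cells together. All cells of both libraries therefore come from animals with floxed Myc and Cre on 1 copy of X-linked Foxp3, and Treg cells with and without Myc coexist in each mouse, per the series title. The sources used here do not give the YFP status of a cell, the age and number of the mice, or the animal behind each cell. With 1 library per tissue there is no replicate, and every interval below is a 95% interval of counting error only.

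Ly6 proteins are small, cysteine-rich proteins that most family members tether to the outer membrane by a glycosylphosphatidylinositol (GPI) anchor. Ly6c1 and Ly6c2 encode the Ly-6C antigens, used as markers of monocytes and of memory and resting T cells. Ly6a encodes Sca-1, a marker of blood stem cells that T cells also carry and that interferons raise. Ly6e encodes a broadly expressed, interferon-inducible member, also called TSA-1 or Sca-2, and Ly6d encodes ThB, a B-lineage antigen.

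The 5 genes lie on chromosome 15 of GRCm38 within 349.9 kb. Ly6d (ENSMUSG00000034634) spans 74762056 to 74763620 on the minus strand and Ly6e (ENSMUSG00000022587) spans 74955051 to 74959905 on the plus strand. Ly6a (ENSMUSG00000075602) spans 74994877 to 74998031, Ly6c1 (ENSMUSG00000079018) spans 75044018 to 75048830 and Ly6c2 (ENSMUSG00000022584) spans 75108158 to 75111970, all on the minus strand. Ly6c1 and Ly6c2 are near-identical copies with 59.3 kb between them. Bases 1 to 300 of their coding sequences, 5' to 3' on the minus strand, from GENCODE M21 transcripts on GRCm38, are printed to show how alike the copies are. They lie before the 3' untranslated regions of 389 (Ly6c1) and 382 bases (Ly6c2), so they are not the end that the kit reads. Capitals mark the 7 bases that differ in this stretch.
Ly6c1: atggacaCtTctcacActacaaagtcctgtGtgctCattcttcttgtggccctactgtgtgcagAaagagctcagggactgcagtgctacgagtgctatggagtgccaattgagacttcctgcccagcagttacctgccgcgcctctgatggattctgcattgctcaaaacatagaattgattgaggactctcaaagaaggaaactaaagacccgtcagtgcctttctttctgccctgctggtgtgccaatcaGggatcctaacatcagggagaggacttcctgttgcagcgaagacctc
Ly6c2: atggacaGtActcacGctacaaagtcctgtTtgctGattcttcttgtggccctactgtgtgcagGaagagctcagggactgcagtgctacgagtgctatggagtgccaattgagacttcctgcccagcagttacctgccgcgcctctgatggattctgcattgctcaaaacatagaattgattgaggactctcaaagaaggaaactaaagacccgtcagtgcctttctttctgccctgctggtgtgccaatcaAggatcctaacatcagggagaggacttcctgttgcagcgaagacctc
The 2 whole coding sequences share 387 of 396 bases (97.7%), with 2 more differences after the printed stretch. The kit reads the 3' end, where the last 300 transcript bases of Ly6c1 and Ly6c2 align with 93.5% identity. The same stretch of Ly6c1 aligns with Ly6a at 80.1%, and all other pairs that include Ly6e or Ly6d fall between 44.7% and 49.6%. Counts of Ly6c1 and Ly6c2 are therefore uncertain where reads could belong to either copy, and the sources used here do not say how the deposited counts treated such reads. The RefSeq promoter table on GRCm38.p6 held Ly6c1 and Ly6c2 (2 of 5 members; Ly6a, Ly6e and Ly6d were not in it). No window from 250 bases before to 50 after their starts held an interferon-stimulated response element core (GAAA, any 2 bases, GAAA) or TTCNNNGAA, a gamma-activated sequence core, on either strand. Of 32851 promoter windows of this length, 3.44% held the first motif and 8.30% the second.

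The kept cells numbered 4820 in lymph node (13053739 unique molecular identifiers, UMIs, median 2031 per cell) and 6543 in spleen (16641089 UMIs, median 1935). T cell markers were plain in both, with Cd3d UMIs in 89.6% and 88.7% of cells, and Foxp3, the master regulator of Treg cells, at 110 and 108 CPM (UMIs of a gene per 1000000 UMIs). The gene table has 3 added sequences, of which ICRE had 442 and 651 UMIs, EYFP 0 and 2, and CRE 0 in both. The ICRE sequence is not given, so reading it as a mark of the Cre allele of Foxp3 is an assumption. Doublets were not removed, and 45 kept barcodes occur in both libraries. Haemoglobin transcripts were present in the lymph node library and nearly absent from spleen (Hbb-bs at 160 against 0.180 CPM). Cells were gated by at least 1 raw UMI of Foxp3, ICRE, Klrg1, Ifit1, Cd8a or Cd79a, and 249 and 350 cells fell in more than 1 gate. At these depths a cell without a UMI of a gate gene may still express it. A gene was called higher or lower past 1.5-fold if it passed a filter of 20 CPM in the library and 10 UMIs expected in the gated cells. Ly6c1, Ly6a and Ly6e passed in all 12 combinations of gate and library, Ly6d in 11 and Ly6c2 in 0.

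Between tissues the 4 members with more than 20 CPM differed by less than 1.5-fold. Ly6c1 was at 126 CPM in lymph node (1651 UMIs, interval 120 to 133) and 142 CPM in spleen (2368 UMIs, interval 137 to 148), a spleen over lymph node ratio of 1.13 (interval 1.06 to 1.20). Ly6a went the other way, from 268 CPM in lymph node (3498 UMIs) to 244 CPM in spleen (4058 UMIs), a ratio of 0.910 (interval 0.870 to 0.952). Ly6e was at 1974 and 1825 CPM (ratio 0.925, interval 0.909 to 0.94). Ly6d was at 54.0 and 42.9 CPM (ratio 0.794, interval 0.715 to 0.883). These steps are small beside the 1.5-fold call, which 0.533% of 4877 genes passed upward and 0.656% downward. The Ly6a ratio shrank further on a log2 scale, from -0.14 to -0.018 with cells weighted equally and -0.043 with every cell thinned to 1200 UMIs. B cell markers fell in step with Ly6d: Cd79a, a chain of the B cell receptor, was at 64.8 and 46.6 CPM. Without cells of any of the 6 gates the log2 ratio of Ly6d was 0.69, on the other side of 0.

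Ly6c2 was scarce, at 4.21 CPM in lymph node (55 UMIs) and 6.43 CPM in spleen (107 UMIs). Its ratio of 1.53 (interval 1.09 to 2.15) rested on very few cells, since 6 lymph node cells with 2 or more UMIs held 54.5% of the total and 12 such spleen cells held 75.7%. Leaving out the 4 spleen cells with a UMI of Siglech, a receptor of plasmacytoid dendritic cells, took its log2 ratio from 0.61 to 0.17. Those cells were chosen after their values were seen.

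At an equal depth of 1200 UMIs per cell, Ly6e was found in 87.6% (lymph node) and 85.5% (spleen) of cells, and Ly6a in 19.4% and 19.2%. Ly6c1 was found in 13.2% (interval 12.3 to 14.3) and 15.2% (interval 14.3 to 16.1), against 19.1% and 21.0% without thinning. Cd79a-positive cells, with median depths of 2865 and 2351 UMIs, had Ly6c1 in 4.86% and 4.23% at 1200 UMIs and in 17.8% and 9.52% without thinning. They also held T cell transcripts (values below), so these shares are not a measure of free RNA alone. Ly6d was in 3.06% and 2.82% of all cells and in 1.51% and 1.57% of Cd79a-negative cells at that depth.

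Ly6c1 depended strongly on how many UMIs a cell yielded, which matters for every gate below. In the shallowest quintile of lymph node cells (692 to 1463 UMIs) Ly6c1 was at 288 CPM, and in the deepest quintile (3360 to 34865 UMIs) at 44.7 CPM, 6.45-fold apart (interval 5.47 to 7.62). In spleen the ends were 282 and 59.5 CPM, 4.75-fold apart (interval 4.15 to 5.45). Ly6e fell less, 1.94-fold in lymph node and 1.81-fold in spleen. Ly6a did not fall with depth in lymph node, where it stood at 169 CPM in the shallowest and 292 CPM in the deepest quintile, and was at 197 and 228 CPM in spleen. UMIs per cell reflect both RNA content and capture, and these cannot be told apart.

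**Figure D1:**
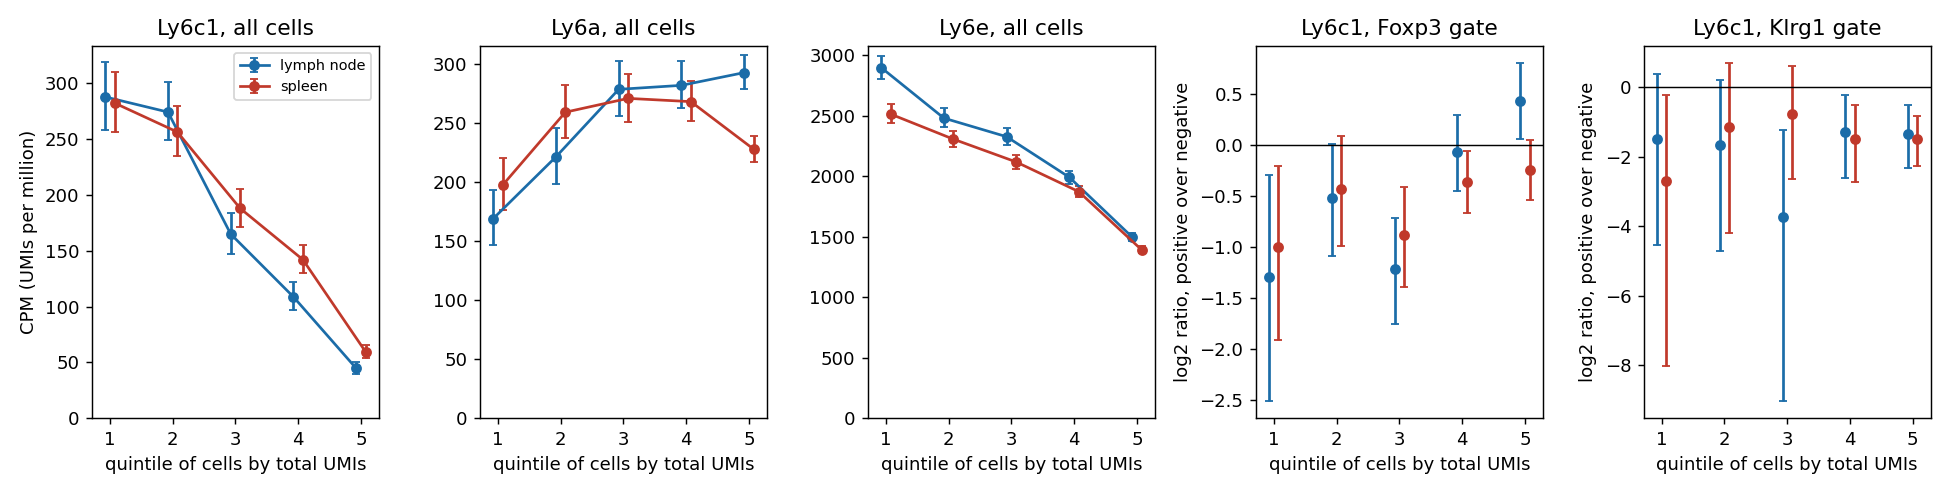
Level of Ly6c1, Ly6a and Ly6e (CPM, left 3 panels) in quintiles of cells ordered by total UMIs, from shallowest (1) to deepest (5), and the log2 ratio of Ly6c1 between gate-positive and gate-negative cells within each quintile (right 2 panels); bars are 95% counting intervals. Ly6c1 drops from 288 to 44.7 CPM in lymph node. Its Klrg1 log2 ratio is below 0 in every quintile of both libraries, with intervals excluding 0 in 3 of 5 quintiles of each.

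Foxp3-positive cells differed from the rest by less than 1.5-fold in Ly6a and Ly6e. They carried less Ly6c1, a difference that fell short of 1.5-fold after matching on depth. They numbered 1007 in lymph node (20.9% of cells) and 1239 in spleen (18.9%), and were deeper than Foxp3-negative cells (median 2849 against 1846 UMIs, and 2940 against 1793). Il2ra, Ikzf2, Ctla4 and Il2rb, the other Treg markers used, summed to 1490 against 1209 CPM in lymph node. In spleen these markers summed to 1621 against 1210 CPM. The Foxp3 gate is therefore not a clean split of Treg cells from other cells. Ly6c1 was at 76.1 CPM in positive and 146 CPM in negative lymph node cells, 1.91-fold lower (interval 1.68 to 2.19). In spleen it was at 78.9 and 166 CPM, 2.11-fold lower (interval 1.88 to 2.37). Of the 4 members that passed the filter, Ly6c1 and Ly6d were called lower in both libraries, where 1.57% of lymph node and 1.68% of spleen genes were called lower, and none was called higher, against 1.51% and 2.93% of genes. The Ly6c1 call did not survive matching on depth: with Foxp3-negative cells weighted to the depth of positive ones, its log2 ratio went from -0.93 to -0.16 in lymph node and from -1.08 to -0.30 in spleen. Within quintiles of depth the lymph node ratio ran from 0.408 to 1.35, lower in 4 of 5, and the spleen ratio from 0.501 to 0.844, lower in 5 of 5. The fourth lymph node quintile was at 0.951 (interval 0.731 to 1.23). The deepest, with 357 of the 1007 positive cells, was at 1.35 (interval 1.04 to 1.75), higher rather than lower. Ly6a was at 291 against 259 CPM in lymph node (1.12-fold, interval 1.04 to 1.21) and 291 against 226 CPM in spleen (1.29-fold, interval 1.21 to 1.38). By quintile of depth the lymph node Ly6a ratio ran from 0.925 to 1.68, above 1 in 4 of 5, with 1 interval excluding 1. The spleen Ly6a ratio ran from 1.25 to 1.94, above 1 in 5 of 5, with 4 intervals excluding 1. Ly6e was at 1774 against 2050 CPM and 1616 against 1904 CPM, ratios of 0.865 and 0.849, whose log2 values were 0.036 and 0.090 after depth matching, above 0.

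In the Foxp3 gate most effector T cell genes were called higher, and at most 5 of 10 resting T cell genes were called lower. Of the 10 genes of resting, recirculating T cells, 5 in lymph node and 3 in spleen were called lower and 0 higher (median log2 ratio -0.58 and -0.52, against -0.02 and -0.01 over all genes). Satb1, a chromatin organiser of resting T cells, stood at 94.3 CPM in positive and 184 CPM in negative lymph node cells, and at 98.2 and 190 CPM in spleen. Of the effector T cell genes, 9 of 11 and 12 of 12 that passed were called higher, among them S100a4, a calcium-binding protein of motile cells (439 against 165 CPM, and 493 against 182 CPM). With matching on depth, 7 of 11 and 10 of 12 effector genes were past 1.5-fold higher, and 1 and 2 of 10 resting genes past 1.5-fold lower. Median matched log2 ratios were 0.68 and 0.89 for effector and -0.33 and -0.25 for resting genes, against 0.01 and 0.02 over all genes. The share of all genes past 1.5-fold after matching was not computed for any gate, so matched counts lack that background.

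ICRE-positive cells had more Ly6c1 and less Ly6a in lymph node, and in spleen neither difference reached the call. There were 379 and 549 such cells, shallower than the rest (median 1620 against 2104 UMIs, and 1663 against 1989.5). In lymph node Ly6c1 was at 245 against 119 CPM, 2.05-fold higher (interval 1.75 to 2.40), and Ly6a at 155 against 275 CPM, 1.77-fold lower (interval 1.47 to 2.16). Ly6c1 and Ly6d were called higher there and Ly6a lower, where 6.49% of genes were called higher and 6.87% lower. The Ly6d call depended on the setting: its log2 ratio of 0.78 was 0.97 after depth matching and 1.62 without Cd8a and Cd79a cells, but -0.29 with cells thinned to 1200 UMIs, -0.43 with a gate at 2 UMIs and 0.27 without the deepest 6% of cells. By quintile of depth the Ly6d ratio was between 0.234 and 1.20 in the 3 shallower ones and 3.02 and 4.66 in the 2 deeper ones. In spleen no member was called, against 3.66% and 3.82% of genes: Ly6c1 was at 171 against 140 CPM (1.22-fold, interval 1.04 to 1.42) and Ly6a at 203 against 247 CPM (1.22-fold lower, interval 1.06 to 1.40). Matching on depth left log2 ratios of Ly6c1 of 0.37 in lymph node and -0.14 in spleen, both short of the call, while Ly6a stayed at -0.69 and -0.31. By quintile of depth the lymph node Ly6c1 ratio was above 1 in 5 of 5 (1.09 to 2.08), with 1 interval excluding 1. In spleen the Ly6c1 ratio was between 0.541 and 0.952 in the 4 shallower quintiles. In the deepest, with 48 positive cells, it was 3.27 (interval 2.33 to 4.50). The spleen value for Ly6a depended on the gate, at -1.39 with a gate at 2 ICRE UMIs and -0.052 against cells with none of the 6 gate genes. Ly6e was at 2443 against 1946 CPM and 2078 against 1807 CPM, 1.26-fold and 1.15-fold higher. In the same cells 9 of 11 and 11 of 12 effector genes were called lower, and 8 and 5 of 10 resting genes higher, among them Klf2, a factor that keeps T cells recirculating (1878 against 924 CPM, and 1737 against 978 CPM). With matching on depth, 8 of 11 and 8 of 12 effector genes were past 1.5-fold lower, but only 1 and 2 of 10 resting genes past 1.5-fold higher. Median matched log2 ratios were -1.08 and -1.07 for effector and 0.47 and 0.30 for resting genes, against 0.03 and 0.06 over all genes. The matched share of all genes past 1.5-fold was not computed.

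Setting Foxp3-positive cells without ICRE beside ICRE-positive cells without Foxp3, with Cd8a and Cd79a cells left out, compared the 2 gates directly. Lymph node Ly6c1 was at 72.8 against 263 CPM, 3.61-fold lower (interval 2.94 to 4.43), and spleen Ly6c1 at 76.1 against 174 CPM, 2.28-fold lower (interval 1.88 to 2.77). Ly6a was at 290 against 137 CPM in lymph node, 2.11-fold higher (interval 1.69 to 2.67), and 293 against 195 CPM in spleen, 1.499-fold higher (interval 1.28 to 1.76). These groups also differed in depth (median 2832.5 against 1597 UMIs, and 2931.5 against 1630) and in summed effector transcripts (3471 against 913 CPM, and 4143 against 733 CPM). The part of depth and of T cell state in this split was not tested.

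Klrg1-positive cells, marked by an inhibitory lectin receptor of terminally differentiated effector T cells, were low in Ly6c1 and high in Ly6a. They numbered 223 and 229, with median depths of 3209 and 3384 UMIs against 1991 and 1907. Lymph node Ly6c1 was at 26.5 CPM (24 UMIs) against 134 CPM, 5.05-fold lower (interval 3.38 to 7.90), and spleen Ly6c1 at 32.3 CPM (33 UMIs) against 149 CPM, 4.63-fold lower (interval 3.29 to 6.74). Ly6a was at 498 against 250.9 CPM, 1.98-fold higher (interval 1.79 to 2.19), and 473 against 229 CPM, 2.07-fold higher (interval 1.88 to 2.27). So 1 of 4 members was called higher and 1 (lymph node) or 2 (spleen, with Ly6d) lower. Among all genes 9.48% and 14.2% were called higher, and 6.53% and 8.89% lower. After depth matching both differences remained past 1.5-fold, at log2 ratios of -1.50 and -1.23 for Ly6c1 and 0.95 and 1.26 for Ly6a. In every quintile of depth and in both libraries the Ly6c1 ratio was below 1 (0.0754 to 0.592) and the Ly6a ratio above 1 (1.12 to 5.44). Intervals excluded 1 in 3 of 5 quintiles of each library for Ly6c1. For Ly6a they did so in 5 of 5 in lymph node and 4 of 5 in spleen. In the 3 shallower quintiles the Klrg1-positive cells gave only 2, 2 and 1 Ly6c1 UMIs in lymph node and 1, 2 and 4 in spleen.

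With Cd8a and Cd79a cells left out, the Klrg1 difference held among cells with a Foxp3 or ICRE UMI and among cells with neither. In these 2 strata of lymph node Ly6c1 was 3.94-fold (interval 2.32 to 7.28) and 6.78-fold (interval 3.56 to 14.9) lower. In spleen it was 4.59-fold (interval 2.71 to 8.46) and 3.43-fold (interval 2.19 to 5.71) lower. The Klrg1-positive cells gave 14, 9, 14 and 19 Ly6c1 UMIs. They were deeper in every stratum, and these ratios were not matched on depth. At 1200 UMIs per cell, 2.77% of 217 lymph node and 3.79% of 211 spleen Klrg1-positive cells had a Ly6c1 UMI (intervals 1.02 to 5.92 and 1.65 to 7.33). By number of Klrg1 UMIs, spleen Ly6c1 was at 149 CPM at 0, 45.4 CPM at 1, 28.5 CPM at 2 and 20.4 CPM at 3 or more. The last 3 levels came from 19, 6 and 8 UMIs of Ly6c1 and did not differ beyond counting error, while the median depth of the cells went from 2938 through 3438 to 4443 UMIs. In lymph node the levels were 134, 41.5, 0 and 9.91 CPM, the last 2 from 0 and 3 UMIs of Ly6c1. All effector genes that passed (11 of 11 and 12 of 12) were called higher in Klrg1-positive cells, among them the granule protease Gzmb (205 against 11.03 CPM, and 227 against 13.4 CPM). Of 10 resting genes, 8 were lower in both libraries, including Bach2, a repressor that holds T cells quiescent (6.63 against 40.0 CPM, and 8.81 against 45.1 CPM). With matching on depth all of these effector genes stayed past 1.5-fold higher, and 6 of 10 resting genes were past 1.5-fold lower in both libraries. Median matched log2 ratios were 1.73 and 2.26 for effector and -0.80 and -1.22 for resting genes, against 0.10 and 0.11 over all genes. The matched share of all genes past 1.5-fold was not computed. Among other GPI-anchored antigens Cd48, a ligand of CD244, was higher (532 against 276 CPM, and 597 against 275 CPM), while Art2b, an ADP-ribosyltransferase, was lower (52.0 against 81.7 CPM, and 3.92 against 21.8 CPM).

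**Figure D2:**
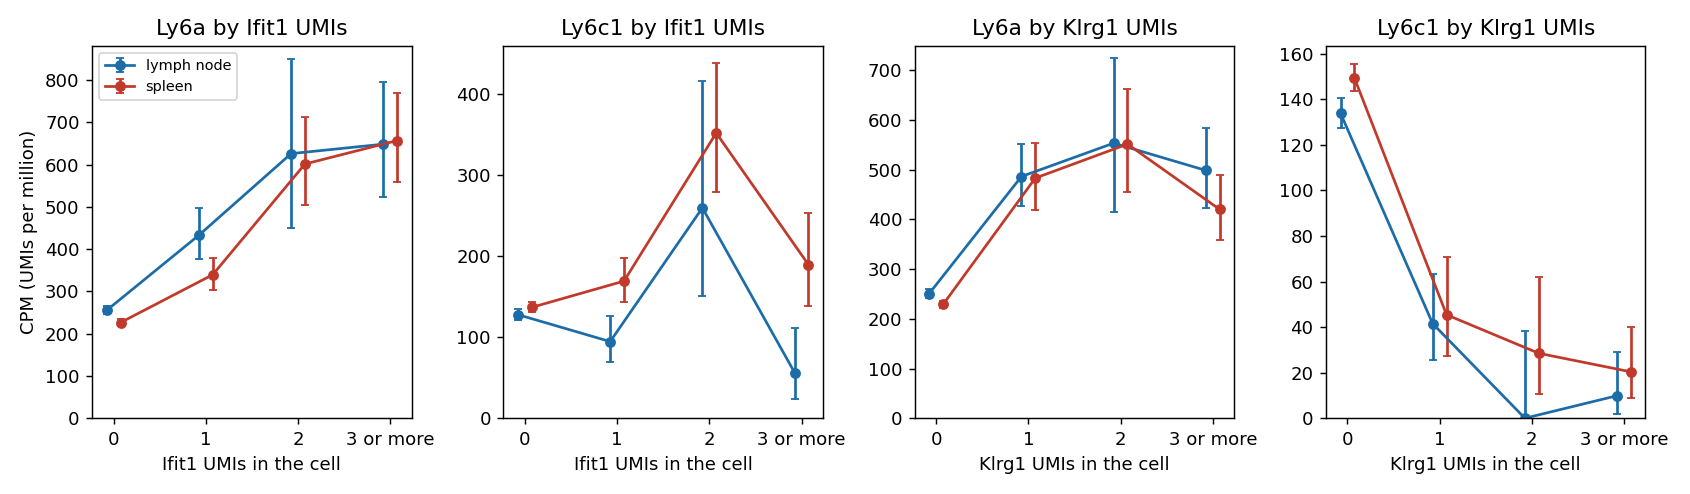
Level of Ly6a and Ly6c1 (CPM) by the number of Ifit1 or Klrg1 UMIs in a cell, with 95% counting intervals, for lymph node and spleen. Ly6a climbs with Ifit1 to 648 and 657 CPM at 3 or more UMIs, and Ly6c1 is at 134 and 149 CPM with 0 Klrg1 UMIs and at 9.91 and 20.4 CPM with 3 or more.

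Ifit1-positive cells, marked by an antiviral protein that type I interferon induces, carried more Ly6a in both tissues. They were 240 cells in lymph node (4.98%) and 522 in spleen (7.98%). Ly6a was at 496 against 255 CPM in lymph node, 1.94-fold higher (interval 1.73 to 2.18), and at 436 against 226 CPM in spleen, 1.93-fold higher (interval 1.77 to 2.10). It was the only member called higher, where 2.96% of lymph node and 1.55% of spleen genes were called higher, and Ly6d was called lower, where 5.67% and 3.07% were. Depth matching hardly moved Ly6a (log2 ratio from 0.96 to 0.94, and from 0.95 to 0.96). Its ratio was above 1 in every quintile of depth of both libraries (1.08 to 3.07), with intervals excluding 1 in 3 of 5 (lymph node) and 5 of 5 (spleen). Ly6a climbed with Ifit1 UMIs, from 255 CPM at 0 to 433 at 1, 626 at 2 and 648 at 3 or more in lymph node, and from 226 through 340 and 601 to 657 CPM in spleen. The levels at 2 and at 3 or more did not differ beyond counting error. In lymph node those at 1 (interval 376 to 496) and at 2 (interval 449 to 849, 23 cells) overlapped as well. Cells with 5 or more Ly6a UMIs were 8.33% of Ifit1-positive and 3.38% of Ifit1-negative lymph node cells, and 6.32% and 2.47% in spleen.

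Ly6e, the other interferon-inducible member, was higher by a smaller step, at 2303 against 1956 CPM in lymph node (1.18-fold, interval 1.12 to 1.24) and 2045 against 1805 CPM in spleen (1.13-fold, interval 1.09 to 1.18). Ly6c1 was higher in spleen, at 202 against 137 CPM (ratio 1.48, interval 1.30 to 1.67). In lymph node Ly6c1 was at 102 against 128 CPM (ratio 0.802, interval 0.622 to 1.02), an interval that includes 1. The lymph node levels by Ifit1 UMIs were uneven, at 94.6 CPM for 1, 260 for 2 and 56.4 for 3 or more, from 45, 17 and 8 UMIs of Ly6c1. The gate sits in the interferon list itself, of which 22 of 22 and 23 of 23 genes that passed were called higher, so that count is no finding. Isg15 gives the scale, a ubiquitin-like interferon product at 457 against 56.8 CPM and 464 against 49.8 CPM. Bst2 (tetherin), a GPI-anchored antigen that is also an interferon gene, was at 335 against 122 CPM and 355 against 129 CPM, 2.75-fold and 2.76-fold higher.

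**Figure D3:**
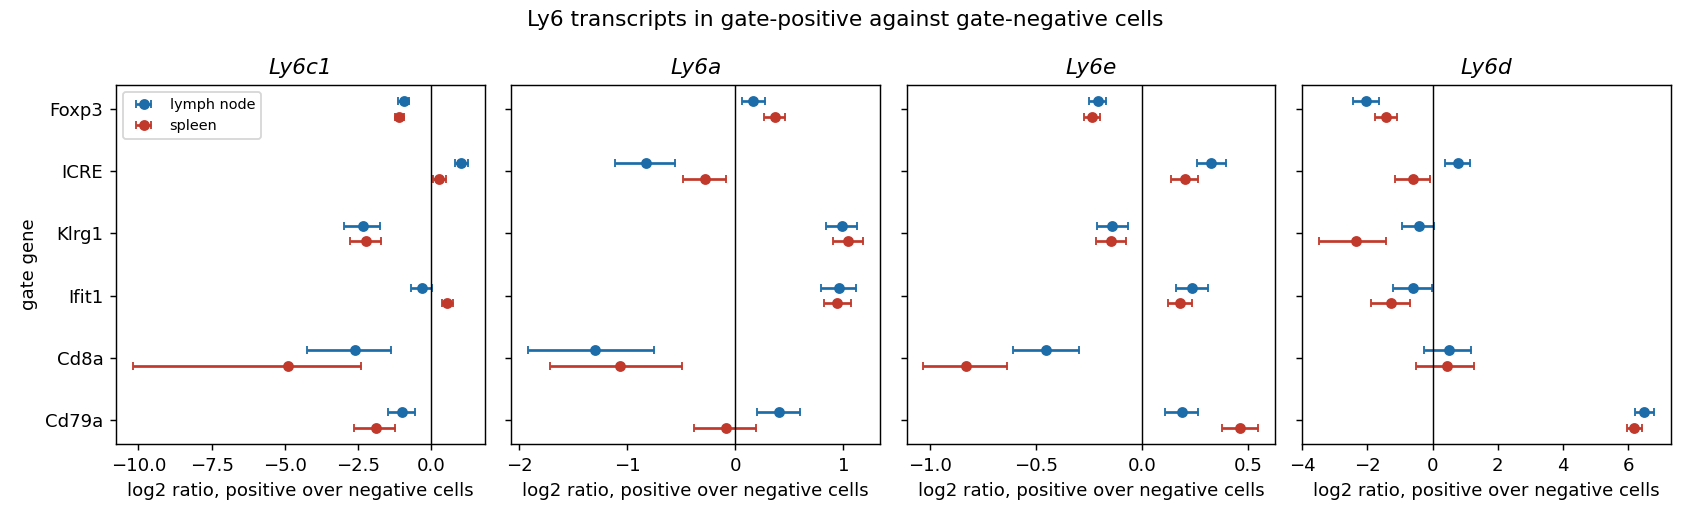
Log2 ratio of Ly6c1, Ly6a, Ly6e and Ly6d between gate-positive and gate-negative cells for each of 6 gate genes, with 95% counting intervals; the 4 panels have different axes. Ly6c1 and Ly6a lie on opposite sides of 0 in the Klrg1 gate, and Ly6d stands above 6 in the Cd79a gate.

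Cells with Cd8a, the CD8 co-receptor chain that a CD4 sort should leave out, were 55 in lymph node and 50 in spleen, and held more Ly6c2 than Ly6c1 UMIs, from few cells. Of Ly6c1 and Ly6c2 UMIs together, Ly6c1 made up 5 of 19 (26.3%, exact interval 9.15 to 51.2) in lymph node Cd8a-positive cells and 1 of 28 (3.57%, exact interval 0.0904 to 18.4) in spleen. Over all cells the share was 96.8% (exact interval 95.8 to 97.6) and 95.7% (exact interval 94.8 to 96.4). Ly6c2 was at 59.1 CPM (14 UMIs) against 3.20 CPM in lymph node, 18.5-fold higher (interval 9.31 to 34.6), and at 131 CPM (27 UMIs) against 4.87 CPM in spleen, 27.0-fold higher (interval 16.8 to 42.2). It did not pass the 20 CPM filter, so it is not counted among the calls. Ly6c2 was detected in 6 of the 55 and 7 of the 50 cells, and its UMIs sat mostly in 2 cells per library, with 10 of 14 (lymph node) and 18 of 27 (spleen). Each of these cells also had 1 or 2 Foxp3 UMIs. They were deep, at 6691 and 4718 UMIs in lymph node and 7102 and 9598 in spleen, and doublets were not removed. In cells with Cd8a as the only gate gene the lymph node balance turned, with 5 UMIs of Ly6c1 and 2 of Ly6c2, while spleen had 1 and 9. Ly6c1 was at 21.1 against 128 CPM and at 4.87 CPM (1 UMI) against 144 CPM. Ly6a was 2.47-fold and 2.10-fold lower. These 2 members were called lower in both libraries, with Ly6e added in spleen (1032 against 1835 CPM), where 11.8% and 17.3% of genes were called lower. No member was called higher, against 3.1% and 3.23% of genes.

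The cells behind the Ly6c2 values were few enough to describe one by one. Ly6c2 was detected in 31 lymph node and 38 spleen cells, and 5 and 8 of these had 3 or more of its UMIs, together 28 and 73. In lymph node all 5 had UMIs of Nkg7, a cytotoxic granule protein, and 3 had Cd8a or Cd8b1. In spleen 6 of the 8 had Nkg7, and 4 of these 6 also had Cd8a or Cd8b1. The 2 without Nkg7 were the spleen cells with most Ly6c2, 14 UMIs each. They had 2 and 1 UMIs of Cd8b1, 0 Cd3e and 0 Nkg7 UMIs but 5 and 4 of Siglech, 12 and 11 of Irf8 and 17 and 14 of Tyrobp, genes of plasmacytoid dendritic cells and innate cells. The same 2 cells had 12 and 10 Ly6d UMIs and 0 of Ly6c1. In lymph node, Siglech had 0 UMIs.

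Cells with Cd79a held most Ly6d. Cd79a-positive cells were 146 in lymph node (3.03%) and 147 in spleen (2.25%), with summed B cell markers at 3335 against 44.3 CPM and 4298 against 42.6 CPM. Summed T cell markers were still at 2165 and 2083 CPM in them, against 3861 and 3851 CPM. Ly6d was at 921 against 10.2 CPM in lymph node, 90.1-fold higher (interval 74.2 to 110), and at 1052 against 14.4 CPM in spleen, 73.0-fold higher (interval 62.3 to 85.8). These cells gave 578 of 705 Ly6d UMIs in lymph node (82.0%) and 481 of 714 in spleen (67.4%), and 50.7% and 54.9% of them had Ly6d at 1200 UMIs per cell. Ly6d was the 1 member called higher, against 4.42% and 5.35% of genes, and Ly6c1 the 1 called lower, against 11.2% and 12.1%. Ly6c1 was at 65.3 against 130 CPM and 39.4 against 145 CPM, but the lymph node log2 ratio was only -0.12 after depth matching. Ly6e was 1.14-fold and 1.38-fold higher. Ly6a was higher in lymph node (349 against 264 CPM) and close to the rest in spleen (229 against 244 CPM, ratio 0.94, interval 0.767 to 1.14).

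In the Foxp3 and Ifit1 gates, where Ly6d was called lower, the negative cells also held more summed B cell markers than the positive ones in both libraries. The part of B cell transcripts in the lower Ly6d levels was not tested. Foxp3-negative lymph node cells held 321 CPM of summed B markers against 126 CPM in positive ones, and Ly6d was at 68.1 against 16.7 CPM. With Cd8a and Cd79a cells left out of both sides, the log2 ratio of Ly6d in the Foxp3 gate was -0.98 in lymph node (-2.03 with all cells) and -1.41 in spleen (-1.42 with all cells). In the Ifit1 gate it was -1.73 in lymph node (-0.59 with all cells) and -0.13 in spleen (-1.27 with all cells), the last short of 1.5-fold.

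Among cells with UMIs of exactly 1 gate gene, and cells with none, the order of levels differed by member. Ly6c1 in lymph node stood highest with ICRE (276 CPM), then in cells with none (151 CPM) and with Ifit1 (136 CPM), which did not differ beyond counting error. Foxp3 (81.7 CPM), Cd79a (55.7 CPM), Cd8a (35.7 CPM) and Klrg1 (18.3 CPM) followed, each overlapping the next. In spleen Ifit1 came first (258 CPM), then none (170 CPM) and ICRE (160 CPM), which overlapped, then Foxp3 (84.5 CPM), Klrg1 (56.8 CPM), Cd79a (23.0 CPM) and Cd8a (6.85 CPM), again each overlapping the next. Ly6a was highest with Klrg1 and Ifit1 in both libraries (486 and 449 CPM in lymph node, 350 and 402 CPM in spleen, overlapping), with Cd79a (390 CPM) overlapping both in lymph node, and lowest with Cd8a (64.2 and 75.4 CPM). ICRE was next to last (128 and 186 CPM), overlapping Cd8a in lymph node and not in spleen. Ly6e ranged from 1263 CPM with Cd8a to 2415 CPM with ICRE in lymph node, and from 953 CPM with Cd8a to 2726 CPM with Cd79a in spleen. Ly6d was at 1267 and 1271 CPM with Cd79a and at most at 31.6 and 18.2 CPM elsewhere. Ly6c2 was highest with Cd8a in spleen (61.7 CPM, not overlapping the next). In lymph node its 14.3 CPM with Cd8a came from 2 UMIs and overlapped the 4.70 CPM of cells with none. It had 0 UMIs with Klrg1 or Cd79a in both libraries.

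**Figure D4:**
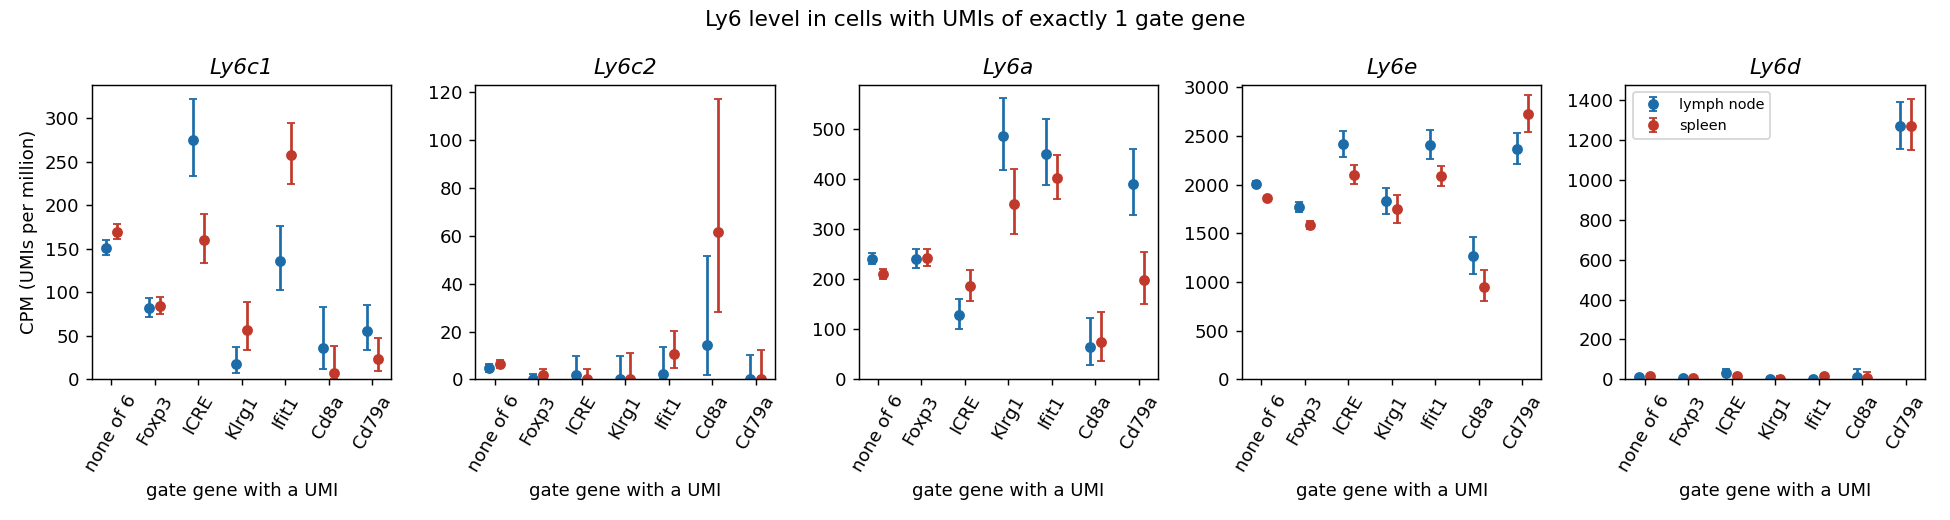
Level of each Ly6 member (CPM, 95% Poisson intervals) in cells with UMIs of exactly 1 of 6 gate genes and in cells with none, for lymph node and spleen; each panel has its own axis from 0. Ly6a is highest with Klrg1 and Ifit1, overlapped by Cd79a in lymph node, and Ly6d reaches 1267 and 1271 CPM with Cd79a.

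The balance of Ly6a and Ly6e UMIs within the same cells needs no scaling to the library total. Ly6a made up 12.0% of the 2 genes' UMIs over all lymph node cells and 11.8% over all spleen cells. The share was 21.6% and 22.2% in Klrg1-positive cells, 17.7% and 17.6% in Ifit1-positive cells, and 5.96% and 8.90% in ICRE-positive cells. None of these intervals reached the overall share.

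Read from the members' side, effector transcripts fell with Ly6c1 and climbed with Ly6a. At 1200 UMIs per cell, the 14 effector genes summed to 1685 CPM in lymph node cells with 0 Ly6c1 UMIs and 481 CPM in cells with 3 or more, and to 1860 and 573 CPM in spleen. With Ly6a they went from 1318 CPM at 0 to 4323 CPM at 3 or more in lymph node, and from 1484 to 4091 CPM in spleen. The 10 resting genes went from 2554 to 3862 CPM with Ly6c1 in lymph node and from 2703 to 3677 CPM in spleen. With Ly6a they went from 2776 to 2012 CPM and from 2833 to 2255 CPM. The 30 interferon genes went with Ly6a in both libraries (3374 to 6855 CPM, and 3677 to 7890 CPM) and with Ly6c1 in spleen (3949 to 6177 CPM), while in lymph node they were at 3568 and 3826 CPM at the ends of the Ly6c1 scale. Groups with 3 or more UMIs were small, with 71 and 80 cells for Ly6c1 and 128 and 143 for Ly6a. Thinning does not match cells on their original depth, with which Ly6c1 fell, and the part of depth in these trends was not tested.

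**Figure D5:**
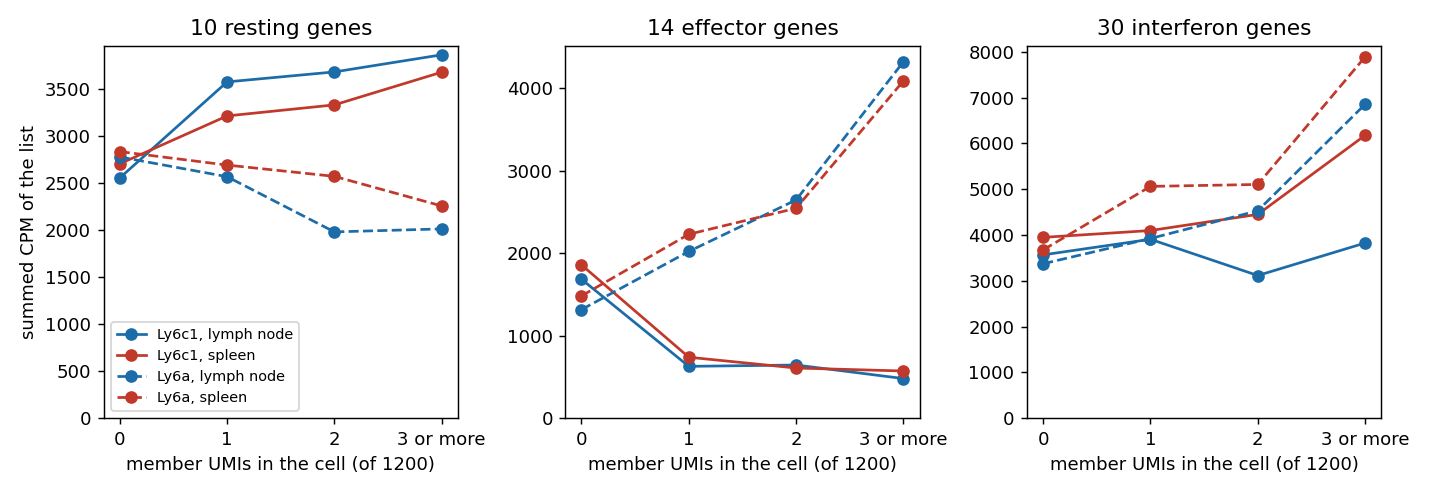
Summed level (CPM) of 10 resting, 14 effector and 30 interferon genes in cells with 0, 1, 2 or 3 or more UMIs of Ly6c1 (solid) or Ly6a (dashed), each cell thinned to 1200 UMIs. Effector transcripts fall with Ly6c1 to 481 and 573 CPM and rise with Ly6a to 4323 and 4091 CPM. Thinning does not match cells on their original depth.

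Ly6a was nevertheless found more often in cells with Ly6c1 than in cells without it. Ly6a was detected in 29.1% of 605 Ly6c1-positive lymph node cells (interval 25.5 to 32.9) and in 17.9% of the 3963 without Ly6c1 (interval 16.8 to 19.2). In spleen it was detected in 33.1% of 913 (interval 30.03 to 36.2) and 16.7% of 5105 (interval 15.7 to 17.8). The same direction held in cells with none of the 6 gate genes (29.1% against 16.4%, and 31.3% against 14.8%). In spleen Klrg1-positive cells the share was 1 of 8 (12.5%, interval 0.316 to 52.7) against 33.5%, too few cells to give a direction. Intervals also overlapped in lymph node Foxp3-, Ifit1- and Klrg1-positive cells, where the share was higher with Ly6c1. The 3' ends of the 2 genes are 80.1% identical, and the part of reads shared between them in this pairing was not tested.

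Of 30 other Ly6 and uPAR family genes in the gene table, 19 had 0 UMIs, among them the granulocyte antigen Ly6g, and 7 had 10 or more over both libraries. Ly6k, a GPI-anchored protein known from testis, led with 222 UMIs (17.0 CPM) in lymph node and 481 UMIs (28.9 CPM) in spleen, 1.70-fold higher in spleen (interval 1.45 to 2.002). Like Ly6c1 it was lower in Klrg1-positive cells, at 9.95 against 17.5 CPM in lymph node (9 UMIs) and 15.7 against 29.8 CPM in spleen (16 UMIs), although the lymph node interval of its ratio, 0.258 to 1.10, included 1. Ly6g5b had 14 and 90 UMIs, Lynx1 41 and 45, Lypd6b 26 and 40, Plaur (the urokinase receptor) 27 and 29, Ly6i 10 and 5, and Cd59a, a complement inhibitor, 3 and 8.

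Over the 7 groups with exactly 1 or no gate gene, 2403 genes were ranked by how closely their log2(CPM + 5) followed each member, taking the lower Pearson r of the 2 libraries. Closest to Ly6c1 were Ypel3 (0.90), Rbm4b (0.90), Smc4 (0.90), Clec2d (0.88) and Park7 (0.88). Closest to Ly6a were Arhgap25 (0.87), Wdr83os (0.85), Oxa1l (0.81), Aspscr1 (0.81) and Chmp1a (0.81). Closest to Ly6e were Rest (0.92), Jmjd1c (0.91), Trim35 (0.90), Dpf2 (0.88) and Rassf2 (0.87), and to Ly6c2 Wdr89 (0.88), Pcbp2 (0.86), Nudc (0.85), Eif6 (0.82) and Dnajc15 (0.81). Each r has 7 points that share 1 library, and the highest of 2403 values is high in any case.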

How the data were processed

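The deposited values are UMI counts per gene and barcode for 2 libraries, made with Cell Ranger 3.0.1 on mm10, per the submitters' processing notes; no barcode has under 500 UMIs. The members, gene lists and alternatives were chosen with earlier results of these data known. A filter of 500 or more genes per cell and no more than 10% mitochondrial UMIs removed 259 of 5079 lymph node and 297 of 6840 spleen barcodes. CPM was computed from the summed counts of a group of cells. Reads are 3' tags, so levels were not divided by length. CPM has exact Poisson, shares exact binomial (Clopper-Pearson) and ratios exact conditional intervals at 95% (Python 3.11.15, scipy 1.17.1). No test between groups was made. UMIs remove PCR copies, but the intervals cover counting error only.

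Shares used cells thinned to 1200 UMIs, which left out 252 and 525 shallower cells. Depth matching weighted gate-negative cells to 10 UMI bins of gate-positive ones; the quintiles of depth were added after seeing the values. All 5 members were named, other family genes at 10 or more UMIs over both libraries, up to 3 members per list and gate past 1.5-fold in both libraries, and the 5 genes most like each of 4 members. Not all of these named list genes are repeated in the text. Doublets were not called; an alternative left out the deepest 6% of cells. In simulated counts, 95% ratio intervals covered the simulated ratio in 95.5% of 11286 genes (tissue comparison) and 96.7% of 2906 genes (lymph node Cd8a gate). The simulated counts were Poisson, the model behind the intervals, so this checks the computation only. Measured UMIs varied more between cells than Poisson counts do. At 1200 UMIs per cell the variance over the mean was 1.91 and 1.69 for Ly6c1 and 3.29 and 3.57 for Ly6d. The intervals do not cover this spread.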

Additional observations from a re-analysis of the deposited data

Results flagged for a closer look

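For 3 member and gate pairs the ratio of gate-positive to gate-negative cells lay on opposite sides of 1 in the 2 libraries, by 1 library each. The difference between libraries was not tested. Ly6d in the ICRE gate had a lymph node ratio of 1.71 (interval 1.31 to 2.22) and a spleen ratio of 0.667 (interval 0.453 to 0.951). Ly6c1 in the Ifit1 gate had 0.802 in lymph node (interval 0.622 to 1.02, which includes 1) and 1.48 in spleen (interval 1.30 to 1.67). Ly6a in the Cd79a gate had a lymph node ratio of 1.32 (interval 1.15 to 1.52) and a spleen ratio of 0.94 (interval 0.767 to 1.14).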

How the results depend on the processing

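No paired analysis was possible because each tissue has 1 library, and for the same reason no replicate could be left out. All values here are log2 ratios, lymph node first. Depth matching took Ly6c1 in the Foxp3 gate from -0.93 to -0.16 and from -1.08 to -0.30, in the ICRE gate from 1.04 to 0.37 and from 0.29 to -0.14, and in the Klrg1 gate from -2.34 to -1.50 and from -2.21 to -1.23. It took Ly6d in the Cd79a gate from 6.49 to 7.29 and from 6.19 to 6.51. Thinning to 1200 UMIs gave Ly6c1 -1.20 in the lymph node Foxp3 gate and 0.77 and -0.061 in the ICRE gate, and Ly6c2 3.27 in the spleen Cd8a gate (4.76 as reported). Equal weights gave Ly6c1 0.71 and -0.040 in the ICRE gate. Cells with none of the 6 gate genes as reference gave it 0.70 and 0.011, and Ly6d 5.85 in the spleen Cd79a gate. A gate at 2 UMIs gave Ly6c1 0.76 for ICRE and -4.15 for Klrg1 in lymph node and -1.55 for Foxp3 in spleen, Ly6a 1.33 and 1.48 for Ifit1, and Ly6d 6.997 and 6.92 for Cd79a. Without the deepest 6% of cells Ly6c1 was -0.81 in the spleen Foxp3 gate, Ly6d 6.95 in the lymph node Cd79a gate and Ly6c2 3.89 in the spleen Cd8a gate.

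Between tissues, equal weights gave Ly6c1 0.070 (0.17 as reported) and Ly6a -0.018 (-0.14 as reported), thinning gave Ly6a -0.043 and leaving out the deepest cells -0.050. Of 25 called ratios, 20 kept their sign under every alternative that gave a value, and the other 5 were all of Ly6d. Against cells with none of the 6 gate genes, Ly6d was 0.57 and 0.086 for Foxp3 and 1.70 and 0.039 for Ifit1; this takes Cd79a cells out of the reference only. Out of both sides, with Cd8a cells, Ly6d was -0.98 and -1.41 for Foxp3 and -1.73 and -0.13 for Ifit1. In lymph node it was -0.29 (thinned) and -0.43 (gate at 2 UMIs) for ICRE and 0.81 (gate at 2 UMIs) for Ifit1, and Ly6c2, which passed no filter, was -1.07 for Ifit1 without Cd8a or Cd79a cells (1.83 with them). Settings with 0 UMIs on a side, mostly of Ly6c2, gave none. Leaving out the 1 cell with most UMIs of the member, or cells with Siglech, was added after seeing the data. The cause of each change was not tested. Depth limits Ly6c2, at 55 and 107 UMIs.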
